A study of Arabidopsis thaliana with 4 samples.

Results

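Pectin methylesterases (PMEs) take methyl groups off the pectin of the plant cell wall, and pectin methylesterase inhibitors bind these enzymes and block them. Many PMEs carry an inhibitor-like domain in front of the catalytic domain, and free inhibitors hold that domain alone. In the flower and the young seed, pectin and its methylation are known for their part in pollen tube growth, in cell adhesion and in the mucilage of the seed coat.

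Here 6 Arabidopsis loci of this family were described: AT1G56100, AT3G05741, AT1G09370, AT4G15750, *ATPMEPCRD* (AT2G43050) and AT5G49180. They were the pectinesterase and inhibitor genes in the lists of up- and down-regulated genes that the study drew up from these libraries, 6 of 27206 loci in the expression files. The contrast between *stk* and wild type therefore decided which loci belong here, and their differences between the genotypes are given as a description, with no test. The name inhibitors fitted 4 of the 6: the annotation gives AT1G56100, AT3G05741, AT1G09370 and AT4G15750 an inhibitor domain alone, whereas *ATPMEPCRD* and AT5G49180 have a catalytic pectinesterase domain as well and are annotated as enzymes.

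The 4 libraries were made from the *stk* mutant (*stk-2* in the study's methods, in which *SEEDSTICK* carries an insertion near a splice site) and from wild-type plants, with 2 biological replicates of each, all of ecotype Columbia. Total RNA came from whole inflorescences together with siliques up to 5 days after pollination, which hold many tissues besides the ovule and the seed coat. In such tissue, fewer cells of a type and less RNA per cell cannot be told apart. *STK*, which encodes a MADS-domain factor of ovules and seeds, summed over its models to 7.91 and 7.96 RPKM (reads per kilobase of exon, scaled to the reads of the library) in *stk*, against 38.7 and 40.9 RPKM in wild type, with a log2 difference of -2.19 ± 0.13 (SE; limma adjusted p = 0.0884).

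The library sizes recovered from the RPKM steps were 30564185 and 33673020 reads in *stk*, against 16965995 and 21075042 reads in wild type. The column headers place *stk* replicate 1 on sequencing lane 7 and the other libraries on lane 1. Markers of the endothelium (the innermost seed coat layer) summed to 112 and 129 RPKM in *stk*, against 54.5 and 58.5 in wild type. By the criteria given with the family, 4 of the 5 loci tested were higher in *stk*. Of all loci, 3.1% met them in that direction, and 0 of the 5 had an adjusted p under 0.05 in limma. These markers are genes of the proanthocyanidin pathway, and the study already reported *BAN*, *TT12* and *TT2* among them as higher in *stk* from these libraries. It also found *BAN* transcript outside the endothelium in *stk*, so this sum does not measure the amount of that tissue. The summed RPKM of pollen markers was 896 and 801 in *stk*, against 989 and 884 in wild type. Tapetum markers (the nutritive anther layer) summed to 312 and 218 RPKM in *stk*, against 464 and 246 RPKM in wild type. Markers of seed coat mucilage summed to 521 and 491 RPKM in *stk*, against 527 and 528 RPKM in wild type. For endosperm markers, of which 3 of 8 were tested, the sums were 11.1 and 11.2 RPKM in *stk*, against 5.25 and 8.53 RPKM in wild type, and the 3 embryo markers summed to between 0.272 and 1.27 RPKM in every library. In all these lists, 0 markers were listed at 0 in every library. The part of these tissues in the values of the 6 loci was not tested.

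AT1G56100, annotated as an invertase or pectin methylesterase inhibitor, had the highest RPKM of all pectinesterase and inhibitor loci in both *stk* libraries, while in both wild-type libraries *VGD1* and AT5G07410 were higher. It lies on the minus strand of chromosome 1 and has 3 gene models. The files list models 2 and 3 at 20980369 to 20981147, but models of minus-strand loci with several models stand mirrored within their locus in these files, and in the reference the lowest position of both is 20983280. Models 2 and 3 use donor sites of the same intron 4 bases apart, at the position shown here (TAIR10.1, RefSeq, chr1:20983744-20983773, minus strand). The windows are printed because models 2 and 3, which share their span in the files, differ there by these 4 bases (exon lengths of 686 and 690 bases). How reads were assigned between the models at this site is not given in the sources used here. Capitals mark exon bases.

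AT1G56100.2: TATCATCACCAAgcaagttttcccttctaa
AT1G56100.3: TATCATCACCAAGCAAgttttcccttctaa

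The intron of model 3 opens with gt and that of model 2 with gc. RefSeq gives model 2 a coding sequence of 513 bases and model 3 one of 426 bases. In TAIR10.1 the partial gene AT1G56105 on the opposite strand shares 258 exon bases with the locus, and it was not analysed here. Of 744 windows of 50 bases (the read length) in exons of models 2 and 3, 0 had an exact match elsewhere in the genome. The same held for every such window of the other 5 loci. Over all annotated models of AT1G56100, 108 of 1221 such windows were found elsewhere. Inexact matches were not searched, although the study's mapping allowed up to 2 mismatches.

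Summed over its models, AT1G56100 had 448 and 352 RPKM in *stk*, against 131 and 157 RPKM in wild type. Both *stk* values exceeded both wild-type values, with means of 400 ± 67.9 RPKM in *stk* and 144 ± 18.6 RPKM in wild type (SD, n = 2 each), a ratio of 2.78. Turned back into reads, model 2 alone had 8842 and 7675 reads in *stk*, against 1522 and 2178 reads in wild type. Counting error was therefore small beside the spread between replicates: in *stk*, replicate 1 was 1.27 times replicate 2.

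The models of the locus did not share the reads in the same proportion in every library. Model 1, a longer form with exons far downstream, was listed at 0 in all 4 libraries. Model 3 held 547 of 9389 reads in *stk* replicate 1, or 5.83% (95% exact Clopper-Pearson interval 5.36 to 6.32%), and 449 of 8124 reads in *stk* replicate 2, or 5.53% (5.04 to 6.05%). In wild type it held 0 of 1522 reads in replicate 1, with an upper interval limit of 0.242% (3 reads, the limit taken for a count of 0, would be 0.197%), and 94 of 2272 reads in replicate 2, or 4.14% (3.36 to 5.04%). Wild-type replicate 1 thus stood apart from the other 3 libraries, whose shares lay between 4.14 and 5.83%. These intervals cover counting error only. A missing model of this kind was not particular to this locus: among 1312 loci with several models and at least 1000 reads in every library, 33 models were at 0 in wild-type replicate 1 while holding at least 2% of the reads of their locus in each of the other libraries. The corresponding numbers were 16 and 12 models for *stk* replicates 1 and 2 and 25 models for wild-type replicate 2. On model 3 alone, *stk* had 25.9 and 19.3 RPKM, against 0 and 6.46 RPKM in wild type. The size of that difference depends on the 0, but wild-type replicate 2 was also below both *stk* libraries. The sum over models does not rest on the 0.

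**Figure D1:**
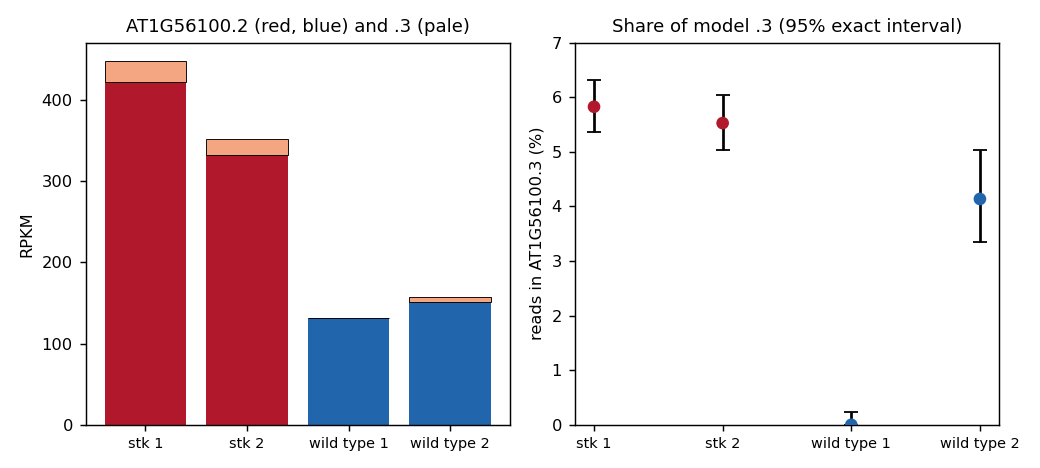
Left, RPKM of AT1G56100 in each library, with model 2 in red (*stk*) or blue (wild type) and model 3 stacked on it in a pale colour. Right, the share of the reads of the locus in model 3, in percent, with the 95% exact binomial interval. The shares were 5.83 and 5.53% in *stk*, against 0 and 4.14% in wild type.

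AT4G15750 is the other abundant inhibitor, on the minus strand of chromosome 4 (8967554 to 8968604 in the TAIR10 positions of the files), and its closest Arabidopsis protein according to the annotation is the product of AT1G56100.2. It had 348 and 256 RPKM in *stk*, against 113 and 110 RPKM in wild type. The groups did not overlap, and the lower *stk* library was 2.26 times the higher wild-type library. The mean was 302 ± 65.1 RPKM in *stk* and 111 ± 2.49 RPKM in wild type (SD, n = 2 each), so the spread was wide in *stk* and narrow in wild type. The annotation lists expression of this locus in embryo, sperm cell and sepal.

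AT3G05741 and AT1G09370 carry the same domain and were expressed at far lower levels. AT3G05741 (chromosome 3, 1701378 to 1702180, minus strand) had 7.70 and 5.07 RPKM in *stk*, against 1.98 and 2.13 RPKM in wild type. These values stand for 189 and 137 reads in *stk*, against 27 and 36 reads in wild type. The exact Poisson intervals of the reads were 115 to 162 in the lower *stk* library and 25.2 to 49.8 in the higher wild-type library. In the positions of the files the locus shares 22 bases with the end of *RECQI1* (AT3G05740), which lies on the other strand, and whether counting used strand is not given in the sources used here. *RECQI1* had 2.51 and 2.68 RPKM in *stk*, against 3.09 and 2.49 RPKM in wild type.

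AT1G09370 (chromosome 1, 3024896 to 3025435, plus strand), annotated as expressed in embryo and cotyledon, had 10.7 and 8.91 RPKM in *stk*, against 2.62 and 3.95 RPKM in wild type. The values stand for 176 and 162 reads in *stk*, against 24 and 45 reads in wild type. Again both *stk* libraries were the higher, while the wild-type replicates differed by a ratio of 1.51. Its neighbour AT1G09360, an inhibitor gene 3075 bases away by the starts of the genes and its closest Arabidopsis protein in the annotation, was listed at 0 in all 4 libraries.

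*ATPMEPCRD* (AT2G43050, chromosome 2, 17902484 to 17904443, plus strand) encodes a PME with an inhibitor domain and was the only annotated enzyme of the 6 that was higher in *stk*. It had 14.7 and 12.2 RPKM in *stk*, against 4.65 and 6.59 RPKM in wild type, with means of 13.4 ± 1.79 RPKM and 5.62 ± 1.37 RPKM (SD, n = 2 each). The lower *stk* library was 1.84 times the higher wild-type library. Its read numbers were 830 and 757 in *stk*, against 146 and 257 in wild type.

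AT5G49180 (chromosome 5, 19940678 to 19943007, minus strand), a putative PME annotated as preferentially expressed in floral buds, was the member with lower values in the mutant. It had 37.1 and 31.3 RPKM in *stk*, against 65.7 and 91.6 RPKM in wild type. The means were 34.2 ± 4.11 RPKM in *stk* and 78.7 ± 18.4 RPKM in wild type (SD, n = 2 each), a ratio of 0.44. The groups did not overlap: the lower wild-type library was 1.77 times the higher *stk* library. It stood on 2216 and 2059 reads in *stk*, against 2175 and 3770 reads in wild type, numbers that RPKM scales to the unequal sizes of the libraries.

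**Figure D2:**
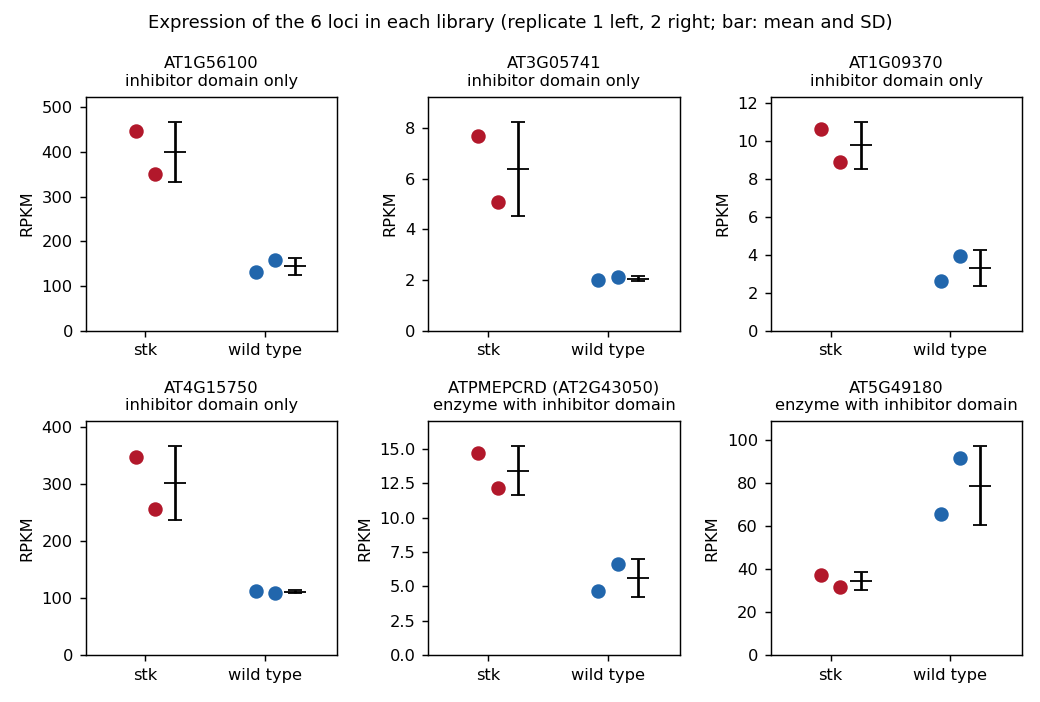
RPKM of the 6 loci in each library, with *stk* in red on the left and wild type in blue on the right of each panel. The points are single libraries, and the bars beside them give the mean and SD of 2 replicates. In 5 panels both *stk* points lie above both wild-type points, and for AT5G49180 both lie below.

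By level, the order over all 4 libraries was AT1G56100, AT4G15750, AT5G49180, *ATPMEPCRD*, AT1G09370 and AT3G05741. Within *stk* the ranges of AT1G56100 (352 to 448 RPKM) and AT4G15750 (256 to 348 RPKM) lay next to each other without overlap, and within wild type (131 to 157 RPKM and 110 to 113 RPKM) the same order held. In wild type the ranges of *ATPMEPCRD* (4.65 to 6.59 RPKM) and AT1G09370 (2.62 to 3.95 RPKM) were also next to each other, and in *stk* (12.2 to 14.7 RPKM and 8.91 to 10.7 RPKM) likewise, in each case with a gap smaller than the distance between the *ATPMEPCRD* replicates. The 2 abundant inhibitors made up much of the inhibitor signal. AT1G56100 and AT4G15750 together held 38.2 and 38.0% of the RPKM of all annotated inhibitors in *stk*, against 16.2 and 18.5% in wild type. Both loci were chosen on this contrast, so the larger share in *stk* follows from the choice and is no separate result. The shares are of deposited RPKM, from which the trend with exon length described below was not removed. The inhibitors other than the 4 listed summed to 1269 and 978 RPKM in *stk*, against 1261 and 1169 RPKM in wild type. All annotated enzymes together, *ATPMEPCRD* and AT5G49180 included, summed to 1815 and 1691 RPKM in *stk*, against 1994 and 1842 RPKM in wild type. Unlike the inhibitor sum before it, the enzyme sum therefore keeps loci chosen on the contrast.

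On the scale of log2(RPKM + 1), the difference of *stk* minus wild type was 1.46 for AT1G56100, 1.41 for AT4G15750, 1.34 for AT1G09370, 1.25 for AT3G05741, 1.13 for *ATPMEPCRD* and -1.16 for AT5G49180. The spread between replicates on that scale was between 0.22 and 0.27 (SD) for each of the 6. For 5 of the 6 loci the lower *stk* value exceeded the higher wild-type value, as for 16.3% of all 19044 loci tested, and for the remaining locus the order was the opposite one, as for 26.8% of loci. Since the loci were chosen on this contrast, nothing is read from these counts.

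To place the 6 loci in their family, all loci whose annotation names a pectinesterase, a pectin methylesterase or an inhibitor of it were gathered, 157 in the annotation and 155 in the files. By domains, 79 were inhibitors, 45 were enzymes with an inhibitor domain and 22 were enzymes without one, and 11 had neither domain in the annotation. The inhibitors were taken by domain and not by the enzyme they block. The 79, and the inhibitor sums above, therefore include *C/VIF1* and *C/VIF2*, which are named for inhibitors of invertase. Of the 149 loci in the files other than the 6, 99 had a mean of at least 1 RPKM and were tested with limma. The thresholds were those of the study, a p of 0.05 or less before adjustment together with means that differed 2-fold or more, but the p came from limma here, where the study used Baggerley's test on expression proportions. These criteria were met by 3.1% of all loci in the direction higher in *stk* and by 0.326% in the direction lower. Among the 99, 3 were higher, a share near that of all loci, and 1 was lower. With Benjamini-Hochberg adjustment in limma, 0 of the family loci and 0 of all loci (0.0%) had an adjusted p under 0.05, while 15 of the 99 had an unadjusted p under 0.05, against 9.18% of all loci. The median log2 difference was -0.07 over the 99 loci and -0.05 over all loci tested.

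The 3 other loci that were higher by these criteria were all inhibitors with low values. Their exons were short, with 679 (AT5G50050), 640 (AT3G27999) and 623 bases (AT3G17152). Of all tested loci with exons under 1000 bases, 11.6% were higher by the criteria, and of the 52 other inhibitors tested, 3 were. AT5G50050 had 6.07 and 4.55 RPKM in *stk*, against 1.65 and 1.82 RPKM in wild type (limma unadjusted p = 0.00054, adjusted p = 0.264). AT3G27999 had 4.703 and 2.459 RPKM in *stk*, against 0.829 and 1.11 RPKM in wild type (limma unadjusted p = 0.00471, adjusted p = 0.424). AT3G17152 had 9.30 and 5.86 RPKM in *stk*, against 2.93 and 4.11 RPKM in wild type (limma unadjusted p = 0.0116, adjusted p = 0.502). In the other direction stood *PME2* (AT1G53830), a PME with an inhibitor domain, with 2.654 and 3.003 RPKM in *stk*, against 5.14 and 7.19 RPKM in wild type (limma unadjusted p = 0.00347, adjusted p = 0.413). None of the 4 had an adjusted p under 0.05 in limma, and each call except that of AT5G50050 was lost without a single library: AT3G27999 without wild-type replicate 1, AT3G17152 without that library or without *stk* replicate 1 (and with the length trend removed), and *PME2* without wild-type replicate 2. With Baggerley's test, as rewritten here, 0 of the 4 met the criteria. Over all loci tested, with models summed, this version called 88 higher and 14 lower, fewer than the study lists.

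At the threshold of a 2-fold ratio, the members closest to it were *ATPMEPCRD* with a ratio of 2.39 and AT5G49180 with 0.44. Just outside it in the family lay AT3G49330 and AT3G17230, both inhibitors, with ratios of 1.94 and 1.91, and on the lower side AT1G23200, an enzyme with an inhibitor domain, with 0.55.

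The most abundant loci of the family outside the 6 had ratios of means close to 1. *VGD1* (AT2G47040), a pollen PME needed for pollen tube growth, had 248 and 214 RPKM in *stk*, against 281 and 251 RPKM in wild type, with a log2 difference of -0.20 ± 0.15 (SE; limma adjusted p = 0.709). AT5G07410, an enzyme annotated in pollen, had 211 and 205 RPKM in *stk*, against 239 and 199 RPKM in wild type. AT5G62350, an inhibitor annotated in response to salt stress, had 156 and 121 RPKM in *stk*, against 145 and 122 RPKM in wild type. *PMEI6* (AT2G47670), an inhibitor that acts in the seed coat mucilage, had 4.17 and 2.55 RPKM in *stk*, against 4.91 and 5.18 RPKM in wild type (limma adjusted p = 0.556). Both *stk* values were thus the lower ones, but the locus did not meet the criteria.

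**Figure D3:**
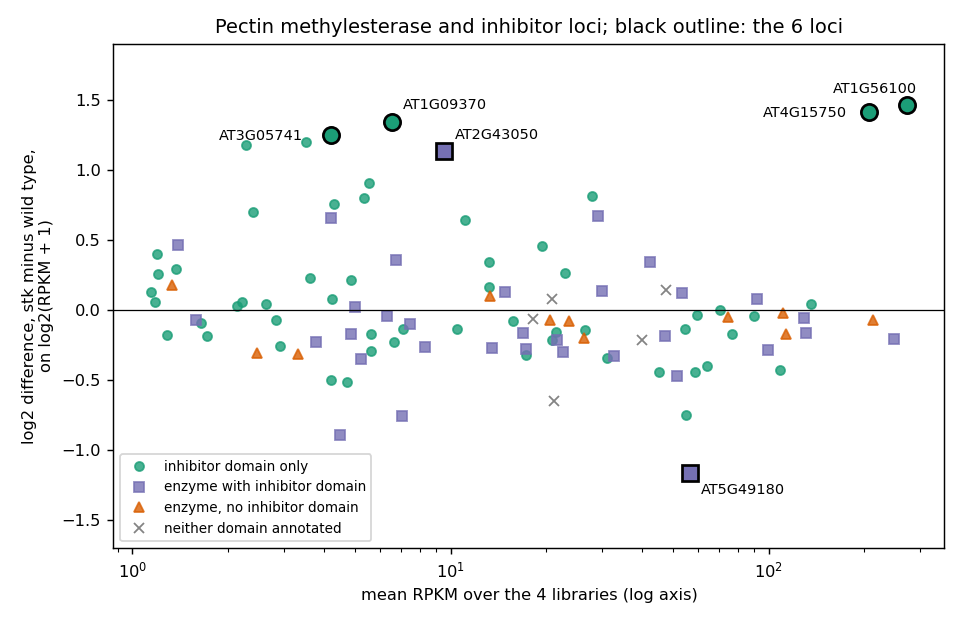
Log2 difference (*stk* minus wild type, on log2(RPKM + 1)) of the tested pectinesterase and inhibitor loci against their mean RPKM over the 4 libraries, on a log axis. Symbols give the annotated domains, and the 6 loci have a black outline and a label: 5 lie between 1.13 and 1.46 and AT5G49180 at -1.16, while the median of the other 99 loci was -0.07.

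Genes that make, modify or break down pectin were examined beside the family, in a list that also holds processing proteases and receptors. Of the 24 loci of this list, 22 were tested and 0 met the criteria in either direction. With limma 0 had an adjusted p under 0.05, and 2 of 22 had an unadjusted p under 0.05, a share near the 9.18% of all loci. These were *ADPG1*, a polygalacturonase of dehiscence, with 3.02 and 2.50 RPKM in *stk*, against 4.30 and 4.50 RPKM in wild type, and *WAK1*, a pectin-binding receptor kinase, with 18.8 and 18.2 RPKM in *stk*, against 25.1 and 24.2 RPKM in wild type. The pectin methyltransferase gene *QUA2* had 44.5 and 39.9 RPKM in *stk*, against 34.8 and 36.4 RPKM in wild type. *SBT1.7*, a subtilase of the seed coat that acts on PME activity, had 215 and 188 RPKM in *stk*, against 198 and 187 RPKM in wild type. The median log2 difference of the list was -0.08, against -0.05 over all loci tested.

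The 4 inhibitors are short genes, with exon lengths of 686 (AT1G56100, model 2), 803 (AT3G05741), 540 (AT1G09370) and 721 bases (AT4G15750), against 1850 bases for *ATPMEPCRD* and 1952 bases for AT5G49180. The loci tested were placed in 5 classes of about equal size by exon length, and the 4 inhibitors fell in the shortest class, from 102 to 929 bases. In that class the median log2 deviation of a locus from its own mean was 0.34 in *stk* replicate 1, against -0.13 in *stk* replicate 2, -0.09 in wild-type replicate 1 and -0.15 in wild-type replicate 2. In the same class 13.4% of loci were higher in *stk* by the criteria, against 0.448% in class 4 (1691 to 2234 bases), which holds *ATPMEPCRD* and AT5G49180. Of the 4463 tested loci with exons under 1000 bases, 11.6% were higher by the criteria.

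With each library's trend against exon length removed, the log2 differences (*stk* minus wild type) were 1.15 for AT1G56100, 1.16 for AT4G15750, 1.105 for AT3G05741 and 0.76 for AT1G09370. The value of AT1G09370, the shortest of the 6, moved most of the 6, against 1.34 on the deposited values. The longer loci changed little, to 1.21 for *ATPMEPCRD* and -1.07 for AT5G49180. Without *stk* replicate 1, in which short genes were raised, the log2 differences were 1.29 for AT1G56100, 1.19 for AT4G15750, 1.23 for AT1G09370, 0.99 for AT3G05741, 1.01 for *ATPMEPCRD* and -1.28 for AT5G49180. Leaving out that library does not remove the trend at the length of AT1G09370. Among 528 loci within 10% of its length, the median deviation was 0.85 and -0.10 in *stk* replicates 1 and 2. In wild-type replicates 1 and 2 it was -0.48 and -0.27. The median log2 difference of those loci, on the deposited values, was 0.74.

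**Figure D4:**
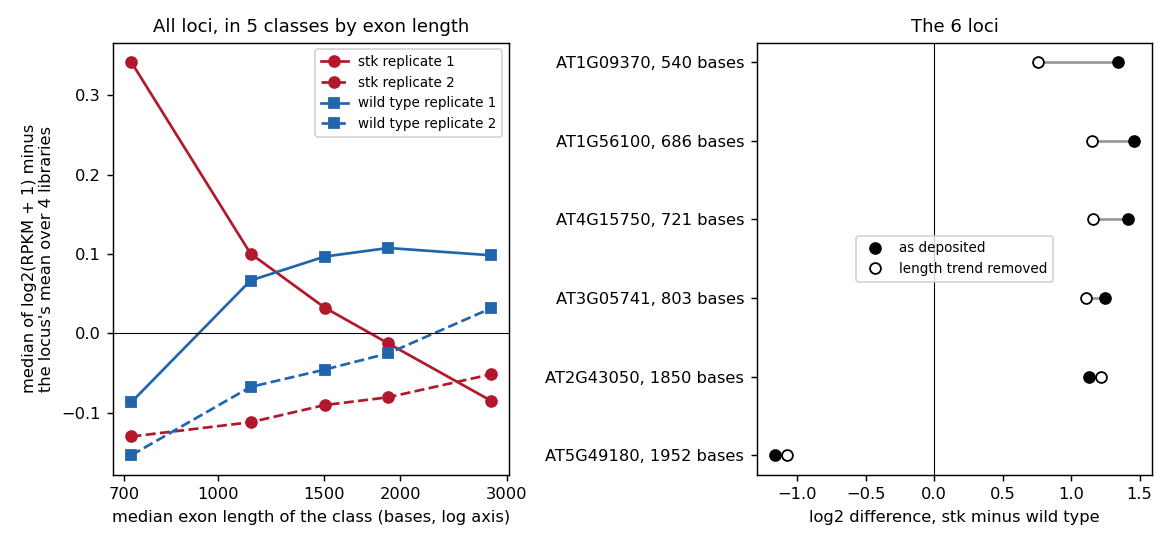
Left, the median over loci of log2(RPKM + 1) minus the mean of the locus over 4 libraries, by 5 classes of exon length on a log axis, for the *stk* libraries in red and the wild-type libraries in blue. *stk* replicate 1 stands at 0.34 in the shortest class. Right, the log2 difference of each of the 6 loci as deposited (filled) and with the length trend removed (open), with AT1G09370 at 1.34 and 0.76.

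MADS-domain factors such as STK bind the CArG box, which has 2 C, then 6 bases that are each A or T, then 2 G. In the 1000 bases before the annotated gene start (TAIR10.1, both strands), 0 of the 6 loci held an exact box, and 7.27% of 26709 promoters of that length did. A box with at most 1 differing base was present in 4 of the 6 and in 77.0% of all promoters. These near boxes are shown, in capitals within 30 bases, because they are the closest matches in the 6 promoters. A match is a description of the letters and not of binding.

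AT3G05741 (chr3:1702861-1702890, minus strand): catttcacatCCAAATAATGaagtcaaaga
AT1G09370 (chr1:3024153-3024182, plus strand): attatatcctCCTATTTTAGttgttatgtt
AT1G09370 (chr1:3024746-3024775, plus strand): attctcacacGCAATTTTGGtaacttacaa
AT4G15750 (chr4:8969156-8969185, minus strand): caataatctaCAATTTAAGGtttgtgttgt
AT4G15750 (chr4:8968943-8968972, minus strand): cactgggccaCCAATATGGGtttatctgcg
AT5G49180 (chr5:19943625-19943654, minus strand): aagatgatggCTTAATAAGGatttttgcat

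The near boxes began between 121 and 714 bases before the gene start. AT1G56100 and *ATPMEPCRD* held neither an exact nor a near box in this window.

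The locus with the profile nearest to each of the 6 over the 4 libraries, by the root mean square difference of centred log2(RPKM + 1) values among the other 19043 loci, was of another family in each case, with a family locus ranked between 3 and 11. It was *MIF1*, a mini zinc finger gene, for AT1G56100 (distance 0.062), an ECA1 gametogenesis related gene (AT2G24205) for AT3G05741 (0.035), *GSTF5*, a phi class glutathione transferase, for AT1G09370 (0.061), a heat shock-like gene (AT1G12180) for AT4G15750 (0.037), a hydrolase gene (AT5G22460) for *ATPMEPCRD* (0.055) and *RR22*, a response regulator, for AT5G49180 (0.048). *MIF1* had 8.00 and 5.49 RPKM in *stk*, against 1.49 and 2.23 RPKM in wild type. The nearest family locus was itself among the 6 for AT1G56100, AT1G09370, AT4G15750 and *ATPMEPCRD*. For AT3G05741 it was AT5G50050 and for AT5G49180 it was *PME2*, both of which met the criteria on the same contrast. Since the 6 were chosen on this contrast, nothing is read from the ranks of the family loci. The likeness of profiles rests on 4 libraries of 2 genotypes and is a description only.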

How the data were processed

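The authors sequenced 4 TruSeq libraries as single reads of 50 bases, mapped them to TAIR10 in CLC Genomics Workbench with up to 2 mismatches, shared reads with up to 10 positions among them, and deposited RPKM values per gene model. Quality control with FastQC is named in the submitters' processing notes. RPKM values of the models of a locus were added. Reads per library were recovered from RPKM steps (98.7 to 99.0% of low values whole within 0.05 reads), and exact Poisson intervals cover counting error only. Loci with a mean of at least 1 RPKM were compared as log2(RPKM + 1) with limma 3.58.1 (R 4.3.3) and Benjamini-Hochberg adjustment over 19044 loci; log2 values understate changes of low loci. In simulated data (18844 loci), every locus had the same dispersion and there was no trend with exon length, unlike the real libraries. There, 24 of 54 loci changed by 1 on the log2 scale, 72 of 72 changed by 2 and 70 of 70 changed by 3 met the criteria. A change of 1 lies on the 2-fold threshold itself, so the ratio of such a locus can fall on either side of it. Of these 54 loci, 33 had an adjusted p under 0.05 in limma. In the simulation 72 of 72 loci changed by 2 also had an adjusted p under 0.05 in limma, against 0 of all 19044 real loci. These rates therefore do not give the power of the real comparison. An exact permutation test of 2 against 2 libraries cannot go below p = 0.333 and was not used. Baggerley's test, which the study names, was rewritten with a normal reference, chosen after a t reference had called 3 loci higher and 1 lower of all loci. The normal reference was taken because its number of calls on gene models was close to that of the study's lists. Its number of calls is therefore no independent check of those lists. On loci with models summed, the rewritten test called fewer than the study lists. Domains came from RefSeq notes (TAIR10.1); protein sequences were not used here.

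The members and lists were chosen with earlier results of these data known. Besides the 6 loci, the text names *STK*, family loci meeting the criteria, the 3 most abundant other family loci, *PMEI6* and nearest profiles; loci next to the threshold, pathway examples, *RECQI1* and AT1G09360 were named after their values were seen. The deposited gene ontology tables hold the authors' own enrichment results and were not used.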

Additional observations from a re-analysis of the deposited data

How the results depend on the processing

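Of 77 values of the 6 log2 differences over 13 alternatives, several of which leave them as they are, 4 moved by more than the SD between replicates: AT3G05741 to 1.56 with a pseudocount of 0.1, and AT1G56100, AT1G09370 and AT4G15750 to 1.15, 0.76 and 1.16 with the length trend removed. AT3G05741 was not tested at a mean of at least 5 RPKM. The causes of the changes below were not tested. The counts of other family loci higher and lower in *stk* were 3 and 1. They were 1 and 0 at a mean of at least 5 RPKM, where fewer loci are tested, and 6 and 2 with no filter. With Baggerley's test they were 0 and 0, both with the normal reference (88 and 14 of all loci) and with the t reference (3 and 1). The t reference was run first, and the normal reference was chosen after the calls of the t reference were seen. The count lower was 3 with the length trend removed. Leaving out each library gave 1 to 9 higher and 1 to 4 lower. With no filter 1 pectin pathway locus met the criteria, against 0. The count of family loci with an adjusted p under 0.05 (limma) ranged from 0 to 16 over the leave-one-out fits: 11 of 103 without *stk* replicate 1, where 1.72% of all loci had one, and 16 of 105 without *stk* replicate 2, where 8.21% had one. These counts include the 6 loci chosen on this contrast. The replicate numbers did not pair the samples (correlation of deviations -0.13); with the replicate block, 0 family loci had an adjusted p under 0.05 in limma, and 3 and 1 met the criteria. With the numbers crossed, chosen after seeing the data, 15 of 105 had an adjusted p under 0.05 in limma, as had 4.84% of all loci. The median of the other family loci moved by less than the spread between replicates under every alternative run. Depth limits the rarest members: AT3G05741 and AT1G09370 stood on 24 to 45 reads in wild type.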
